A study of Bos taurus with 6 samples.

Results

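The human, mouse and rat miRNA homologs are small RNAs of cattle that were counted under the name of a miRNA of another mammal. They were selected on measured values. A homolog was kept when its name started with hsa- (human), mmu- (mouse) or rno- (rat) and its counts in the 4 miRNA libraries summed to 20 or more. This gave 141 homologs of 2731 sequences with such a name, in a table of 8800 sequences that also held 793 known bovine miRNAs and 5276 predicted sequences. There were 70 human, 45 mouse and 26 rat homologs. The tissue was intramuscular fat (IMF), the fat laid down within a muscle, dissected from the sternomandibularis of Chinese Qinchuan male cattle. All animals were 24 months old and had been weaned at 3 months. Steers (castrated males) had been castrated at 6 months, and bulls (intact males) served as the comparison. Each group had 2 miRNA libraries. The design text puts a pool of 3 animals behind each library whereas the sample labels give 1. The p-values measure the spread between 2 libraries per group. If the libraries are pools, this is not the spread between single animals. The tissue was not sorted into cell types.

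A miRNA is a short RNA that guides an Argonaute protein to messenger RNAs, which are then translated less or degraded. The seed, bases 2 to 8 counted from the 5′ end, does most of the target pairing, and miRNAs that share a seed form a family. Many families are shared by all mammals, so a read from cattle can match a human, mouse or rat entry as well as a bovine one, whereas names with a high number were mostly assigned late, are often known from 1 species and include some that overlap ribosomal, transfer or small nucleolar RNA. By the study's methods, the search against other species was made on the reads that remained after bovine miRNAs and predicted sequences.

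The libraries held 10452582 and 8859844 counts in steers 1 and 2, and 7784227 and 6556511 in bulls 1 and 2. Known bovine miRNAs took 86.2% to 93.2% of the counts. The library of bulls 2 stood apart, with 13.0% of its counts on predicted sequences against 6.39% to 9.85% in the other 3 libraries. It also had the highest TMM factor (the scaling factor of edgeR), 1.42. The factor was lowest in steers 1, at 0.746, beside 0.968 in steers 2 and 0.972 in bulls 1. Adipocyte genes were present at 0.252% of the mRNA counts in the pooled steer library and 0.309% in the pooled bull library. Skeletal muscle genes were there too, at 0.224% and 0.416%.

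The bovine sequences are shown first because the study's methods match reads to bovine miRNAs before the search for homologs. How a read that fits both was counted is not given. The homolog hsa-miR-100-5p kept counts of its own although its sequence is that of a bovine miRNA. They come from the sequence lists that accompany the study, and capitals mark the seed. For 1 homolog, hsa-miR-100-5p, the lists held its own sequence, which was identical to bta-miR-100 over all 22 bases:
hsa-miR-100-5p: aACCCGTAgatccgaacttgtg
bta-miR-100: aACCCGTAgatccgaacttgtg
The most abundant homolog carried the name of miR-23b, a miRNA of the miR-23/24/27 clusters. Bovine miR-23a and miR-23b share the seed TCACATT and a run of 18 bases, so that a shortened read cannot always be assigned to one of them:
bta-miR-23b-3p: aTCACATTgccagggattaccac
bta-miR-23a: aTCACATTgccagggatttcca
Further bovine miRNAs are given, most of them because a homolog of the same name differed between the groups. bta-let-7a-5p and bta-miR-26c have no such homolog and are shown for comparison with bta-let-7c and bta-miR-26a. The let-7 family, which holds back proliferation and stemness genes, has the seed GAGGTAG, carried below by bta-let-7c and bta-let-7a-5p alone:
bta-let-7c: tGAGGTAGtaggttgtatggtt
bta-let-7a-5p: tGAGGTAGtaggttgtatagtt
bta-miR-486: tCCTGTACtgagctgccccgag
bta-miR-99a-3p: cAAGCTCGcttctatgggt
bta-miR-126-3p: cGTACCGTgagtaataatgcg
bta-miR-26a: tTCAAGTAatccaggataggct
bta-miR-26c: aGCCTATCctggattacttgaa
The 22 bases of bta-miR-26c were the reverse complement of bta-miR-26a.

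Homologs took few of the reads. Their share of all counts was 0.354% in steers 1, 0.441% in steers 2, 0.398% in bulls 1 and 0.736% in bulls 2. The mean was 0.398% ± 0.061 (SD, n = 2) in steers against 0.567% ± 0.239 (SD, n = 2) in bulls, and the groups overlapped, since bulls 1 lay between the steer libraries. With 2 libraries against 2, an exact permutation test cannot go below a two-sided p of 0.333, so that no test was made. In these shares, which are not scaled by the TMM factors, the excess in bulls 2 lay in names of human and mouse. Scaling would narrow it, since the factor was 1.42 in bulls 2 against 0.746 in steers 1. Scaled shares were not computed. Human homologs took 0.0876%, 0.132% and 0.128% of all counts in steers 1, steers 2 and bulls 1, and 0.306% in bulls 2. Mouse homologs took 0.124%, 0.139% and 0.137% in the first 3 libraries and 0.302% in bulls 2. Rat homologs showed no such excess, with 0.142%, 0.169%, 0.133% and 0.128% in the same order. Single names weighed heavily in these shares. rno-miR-23b-3p held 37580 of 48627 rat counts and hsa-miR-7641 held 30429 of 50917 human counts. mmu-miR-6236 and mmu-miR-6240 held 27491 and 13164 of 55769 mouse counts.

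**Figure D1:**
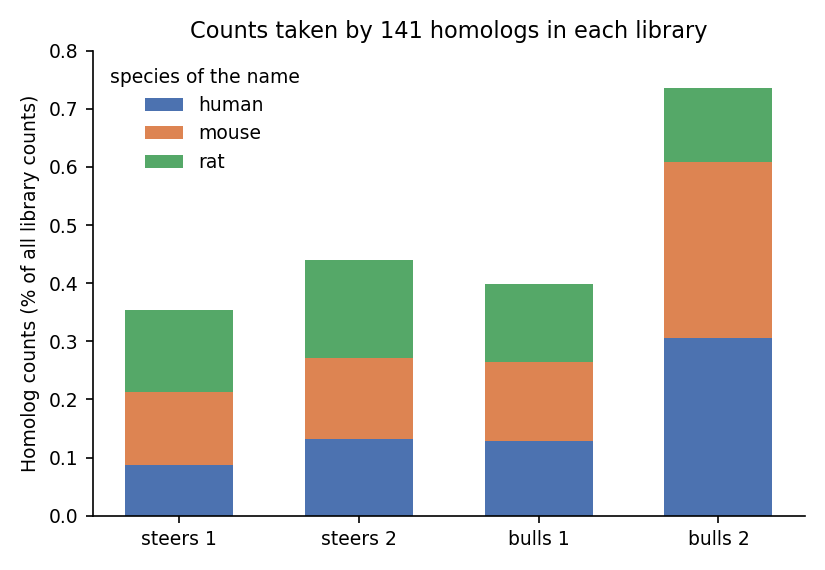
Counts on the 141 homologs as a percentage of all counts, not scaled by TMM factors, in each of the 4 miRNA libraries, stacked by the species in the name. The bar of bulls 2 reaches 0.736% against 0.354% to 0.441% in the other libraries, and its rat part, 0.128%, is not raised.

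A few homologs held most of the counts. Counts were compared between homologs without a correction for length, since mature miRNAs are of similar length. The 4 most abundant, rno-miR-23b-3p, hsa-miR-7641, mmu-miR-6236 and mmu-miR-6240, took 69.96% of all homolog counts. The 17 with a sum of 1000 or more took 87.96%, and the 74 with a sum under 100 took 2.11%.

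The most abundant homolog, rno-miR-23b-3p, had 11794 and 11789 counts in steers against 8097 and 5900 in bulls. In TMM-normalized CPM, which scales the counts to a common library size, these were 1513 and 1377 in steers against 1071 and 633 in bulls, so the steer libraries lay above the bull libraries. The log2 fold change of steers over bulls was 0.76 (SE 0.49), which did not pass the test (edgeR's quasi-likelihood test, Benjamini-Hochberg adjusted p = 0.303). The next 3 are not conserved miRNA families. hsa-miR-7641, whose human sequence matches 5S ribosomal RNA, had 621 and 875 CPM in steers against 731 and 1348 CPM in bulls. mmu-miR-6236, a name that overlaps ribosomal RNA, had 943 and 652 CPM in steers against 699 and 994 CPM in bulls. mmu-miR-6240, likewise a ribosomal RNA name, had 327 and 363 CPM in steers against 308 and 556 CPM in bulls. For these 3 the groups overlapped, and bulls 2 was the highest library each time.

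Of the next 8 in abundance, 2 are called below, mmu-miR-1928 and mmu-let-7j. rno-miR-185-3p had 1642 counts in each steer library and 815 and 1466 in bulls, and 211 and 192 against 108 and 157 CPM. Its steer libraries lay above the bull libraries, and the log2 fold change was 0.60 (SE 0.48). The row of bta-miR-185, with 136 and 73 counts in steers against 361 and 218 in bulls, was lower in steers, by a log2 fold change of -1.45 (SE 0.50, edgeR's quasi-likelihood test, adjusted p = 0.0340). The sequence of that bovine row is the other arm of the miR-185 hairpin, so that the rat and the bovine name stand for different molecules. hsa-miR-4792 had 94.7 and 85.6 CPM in steers against 96.0 and 153 CPM in bulls. mmu-miR-6978-5p had 87.4 and 105 CPM in steers against 73.9 and 81.4 CPM in bulls. hsa-miR-664b-3p, a miRNA that comes from a small nucleolar RNA, had 77.1 and 45.5 CPM in steers against 44.7 and 31.6 CPM in bulls. For the last 2 the steer libraries lay above the bull libraries, and for hsa-miR-4792 below them. hsa-miR-6087 was below in steers, at 38.1 and 41.2 against 71.8 and 98.95 CPM, with a log2 fold change of -1.11 (adjusted p = 0.0911, edgeR's quasi-likelihood test). hsa-miR-6131 was below likewise, at 28.7 and 32.6 against 50.1 and 64.4 CPM, with a log2 fold change of -0.90. None of these 6 passed the test, and hsa-miR-6087 alone had an unadjusted p under 0.05, at 0.0168.

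**Figure D2:**
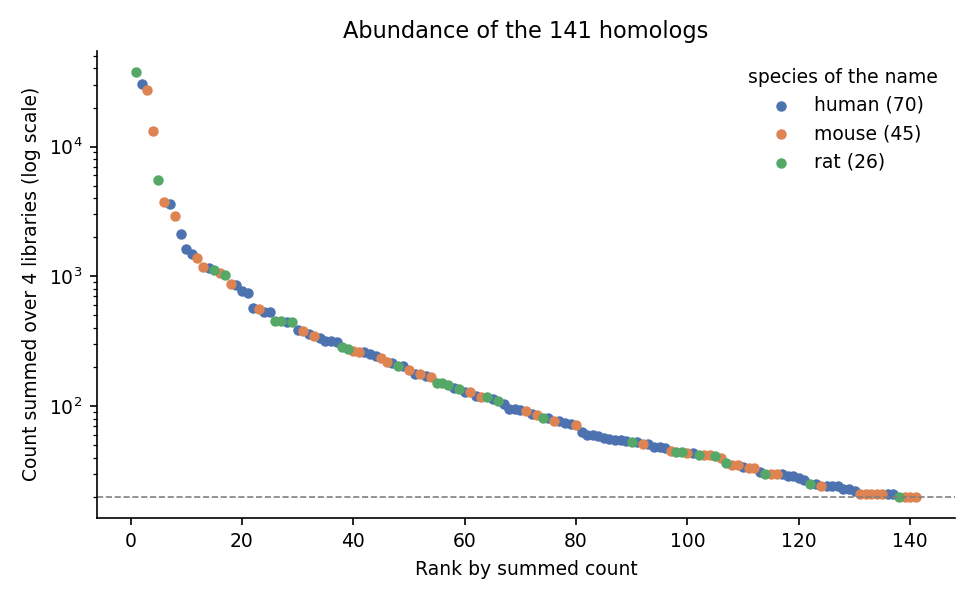
Counts summed over the 4 libraries (log scale) of the 141 homologs, ranked from the highest to the lowest and coloured by the species in the name. The dashed line is the minimum sum of 20, and the sum falls from 37580 for rno-miR-23b-3p to 20 at the last rank.

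The main question was which homologs differed between steers and bulls. All sequences were fitted together, and 106 of the 141 homologs passed the filter on low counts. Called higher or lower meant an adjusted p below 0.05 together with a log2 fold change beyond 1 in either direction. Of the homologs, 6 (5.66%) were called higher in steers, beside 7.08% of the 1073 sequences tested, and 10 (9.43%) were called lower, again beside 7.08%. Both steer libraries lay above both bull libraries in 28 homologs (26.4% of those tested, beside 26.7% of all sequences) and below them in 34 (32.1%, beside 31.5%). The median log2 fold change was -0.15 over the homologs and -0.07 over all sequences. Of these calls, 2 of the 6 and 3 of the 10 had passed the filter on low counts only through the libraries in which they were high, and had to differ. The shares above were near the background, so that the homologs as a set did not stand out from the table. At an unadjusted p under 0.05 there were 32 homologs.

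By species, 1 human homolog (1.8%) was higher and 3 (5.5%) were lower of 55 tested, beside 7.08% of all sequences each way. Of 30 mouse homologs, 3 (10.0%) were higher and 3 (10.0%) lower, and of 21 rat homologs, 2 (9.52%) were higher and 4 (19.05%) lower. Through the bull libraries alone, hsa-miR-629-3p, hsa-miR-7705 and rno-miR-126a-3p had passed the filter on low counts. mmu-miR-99a-3p and rno-let-7c-5p had passed it through the steer libraries alone. The rat calls rno-miR-203a-3p and rno-miR-203b-5p were not independent results. The median log2 fold change was -0.47 for human, -0.07 for mouse and 0.42 for rat names. Without bulls 2 these medians were -0.26, 0.14 and 0.03. With total counts in place of TMM factors, which shifted the median of all sequences to -0.56, they were -1.002, -0.54 and -0.06. Bulls 2 had the highest CPM of the 4 libraries in 37 of 70 human, 18 of 45 mouse and 2 of 26 rat homologs. In a bulk tissue, fewer cells of a type and less RNA per cell cannot be told apart for any of these differences.

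The calls depended on the scaling and on single libraries. With total counts, and likewise with TMM factors taken from known bovine miRNAs alone, 0 homologs were called by edgeR's quasi-likelihood test, although 27 and 18 had an unadjusted p under 0.05. DESeq2 called 13 and limma-voom 12. Without steers 1 the count was 4, without steers 2 it was 1, without bulls 1 it was 11 and without bulls 2 it was 8. Each of the 16 kept its direction in every alternative that could test it.

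**Figure D3:**
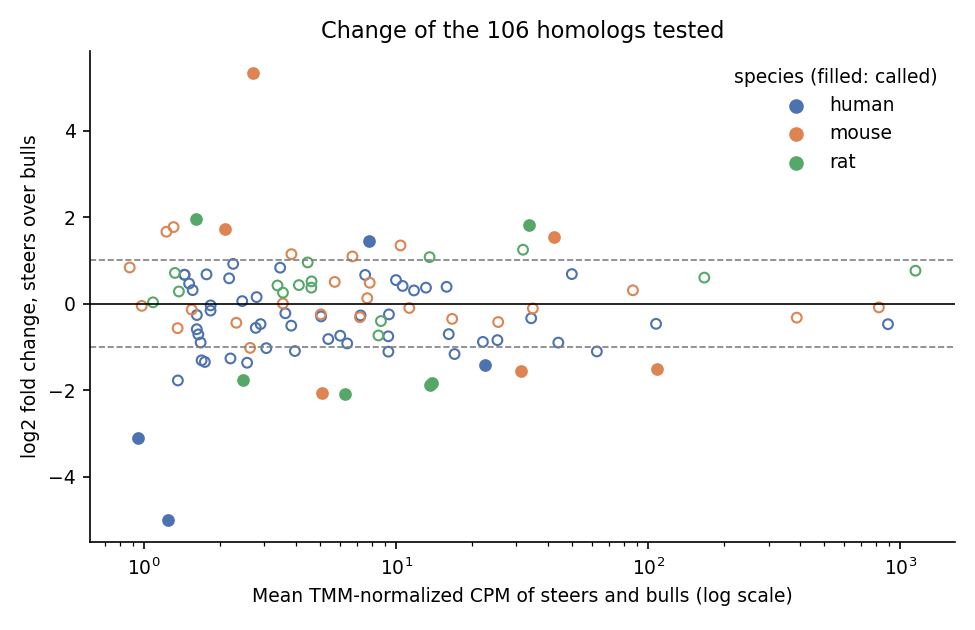
The log2 fold change of steers over bulls for the 106 homologs tested, against their mean TMM-normalized CPM (log scale), coloured by species, with filled points for the 16 called and dashed lines at the fold threshold. The points furthest from 0 are mmu-miR-99a-3p at 5.33 and hsa-miR-629-3p at -5.01, both at low levels.

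Of the 6 homologs higher in steers, 4 carry names of conserved families, miR-99a, miR-486 and let-7. mmu-miR-99a-3p, the minor strand of the miR-99a hairpin, had 17 and 72 counts in steers against 0 and 2 in bulls. It was read almost only in steers, and steers 2 held most of the counts. The ratio of the group sums, scaled by library, was 45.9, with an exact (Clopper-Pearson) 95% interval of 12.4 to 385 that covers counting error only. A count of 0 allows up to 3 counts in a library of this depth. The fitted log2 fold change was 5.33 (SE 0.84, edgeR's quasi-likelihood test, adjusted p = 3.0e-08), and 8.39 without bulls 2. It passed the filter on low counts through the steer libraries alone and so had to differ, and the p is given as a description.

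rno-miR-486, a miRNA abundant in red cells and muscle, had 272 and 600 counts in steers against 132 and 113 in bulls. At 34.9 and 70.1 against 17.5 and 12.1 CPM the groups did not overlap, with a log2 fold change of 1.83 (SE 0.49, edgeR's quasi-likelihood test, adjusted p = 0.0041). mmu-let-7j, a let-7 name of the mouse, had 485 and 540 counts in steers against 198 and 160 in bulls. Its steer libraries were nearly equal, at 62.2 and 63.1 CPM, and lay above the bull libraries at 26.2 and 17.2 CPM. The log2 fold change was 1.53 (SE 0.47, adjusted p = 0.0147, edgeR's quasi-likelihood test). Without 1 library it ranged from 1.22 to 2.06. With total counts it was 1.11 and missed the threshold.

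The other 3 were low in count or near the threshold. rno-let-7c-5p had 19 and 23 counts in steers against 4 and 7 in bulls, for a log2 fold change of 1.96 (SE 0.69, edgeR's quasi-likelihood test, adjusted p = 0.0352). It too passed the filter on low counts through the steer libraries alone. mmu-miR-712-5p, whose mouse gene lies in the spacer of the ribosomal RNA precursor, had 13 and 41 counts in steers against 3 and 14 in bulls. Here steers 1 and bulls 2 lay close together, at 1.67 and 1.501 CPM. hsa-miR-6872-3p had 108 and 78 counts in steers against 21 and 52 in bulls. The log2 fold changes of these last 2 were 1.72 (SE 0.63) and 1.44 (SE 0.53), and both had an adjusted p of 0.0496 in edgeR's quasi-likelihood test. For mmu-miR-712-5p, the log2 fold change was 0.82 without steers 2 and 2.94 without bulls 2, and it was called in neither fit.

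**Figure D4:**
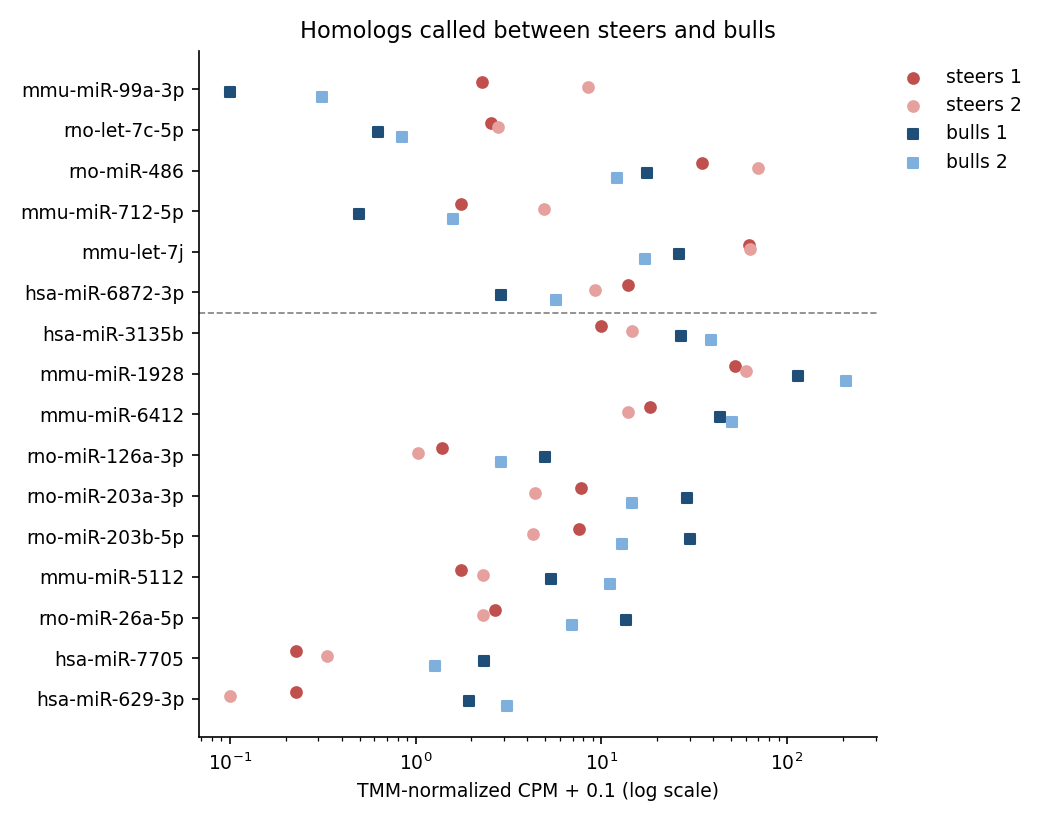
TMM-normalized CPM, with 0.1 added so that a count of 0 can be drawn, of the 16 called homologs in each library (log scale), circles for steers and squares for bulls, ordered by log2 fold change. Above the dashed line both steer libraries lie to the right of both bull libraries in 6 homologs, and below it to the left in 10.

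The 10 homologs lower in steers held 4 rat names of conserved families. rno-miR-26a-5p, of a family that is abundant in most differentiated tissues, had 20 and 19 counts in steers against 102 and 64 in bulls. The steer libraries were alike and both bull libraries were well above, with a log2 fold change of -2.08 (SE 0.55, edgeR's quasi-likelihood test, adjusted p = 0.0041). rno-miR-126a-3p, a miRNA of endothelial cells, had 10 and 8 counts in steers against 37 and 26 in bulls, for a log2 fold change of -1.78 (SE 0.62, edgeR's quasi-likelihood test, adjusted p = 0.0358). It passed the filter on low counts through the bull libraries alone. Without bulls 1 the log2 fold change was -1.33 for rno-miR-26a-5p and -1.13 for rno-miR-126a-3p, and neither was called.

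miR-203 is a miRNA of skin and other epithelia that restrains the stem cell factor p63. rno-miR-203a-3p had 60 and 37 counts in steers against 218 and 135 in bulls. rno-miR-203b-5p, named for the opposite strand of the same hairpin locus, had 58 and 36 counts in steers against 226 and 120 in bulls. The counts of these names agreed within 15% in each library, so that they were not 2 independent results. The log2 fold changes were -1.85 (SE 0.53, adjusted p = 0.0092) and -1.87 (SE 0.53, adjusted p = 0.0085), both by edgeR's quasi-likelihood test. Without bulls 1 they were -1.08 and -0.95, and neither name was called. The bovine miRNAs of the epithelial list were near 0, at 1.03 and 1.05 CPM in sum in steers against 4.76 and 3.86 CPM in bulls. Of its 6 members, 5 were at 0 in at least 1 library and 1, bta-miR-141, could be tested and was lower in steers, with 6 and 6 counts against 30 and 22. bta-miR-141 passed the filter on low counts through the bull libraries alone and so had to differ. The part of epithelial miRNAs in the result was not tested.

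The other 6 were mouse and human names with a number of 629 or more. mmu-miR-1928 was the most abundant of all called homologs, with 407 and 513 counts in steers against 860 and 1942 in bulls. In CPM it stood at 52.2 and 59.9 against 114 and 208, and bulls 2 was the highest. Its log2 fold change was -1.52 (SE 0.47, edgeR's quasi-likelihood test, adjusted p = 0.0158). mmu-miR-6412 had 142 and 118 counts in steers against 328 and 468 in bulls, for a log2 fold change of -1.55 (SE 0.49, edgeR's quasi-likelihood test, adjusted p = 0.0170). hsa-miR-3135b had 9.88 and 14.6 CPM against 26.6 and 38.7 CPM, a log2 fold change of -1.41. mmu-miR-5112 had 13 and 19 counts against 40 and 103, a log2 fold change of -2.07. In all 4 the steer libraries lay below both bull libraries.

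The remaining pair rested on few counts in steers. hsa-miR-629-3p had 1 and 0 counts in steers against 14 and 28 in bulls, a ratio of bulls over steers of 40.7 (exact 95% interval 6.91 to 1640). hsa-miR-7705 had 1 and 2 counts in steers against 17 and 11 in bulls, a ratio of 9.04 (2.79 to 46.5). Both passed the filter on low counts through the bull libraries alone. The call of hsa-miR-7705 was lost in each of the 3 fits without 1 library in which it could be tested, and those of rno-miR-126a-3p and rno-let-7c-5p in each of 4.

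Just outside the threshold stood rno-miR-143-3p (log2 fold change 1.25, adjusted p = 0.0633), mmu-miR-6239 (1.35, adjusted p = 0.0683) and hsa-miR-4454 (-1.78, adjusted p = 0.0699), all by edgeR's quasi-likelihood test. rno-miR-143-3p, which belongs to smooth muscle and stromal cells, had 439 and 285 counts in steers against 199 and 107 in bulls. The groups did not overlap in any of these 3, which were picked for a p near the threshold. Over all sequences, both steer libraries lay above both bull libraries in 26.7% and below them in 31.5%. hsa-miR-4454 passed the filter on low counts through the bull libraries alone.

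The let-7 names were described as a family. Of 5 homologs with a let-7 name, 4 were tested. The 4 had log2 fold changes above 0 and steer libraries above bull libraries in TMM-normalized CPM, and 2 of them were called, beside 26.7% and 7.08% of all sequences. Of the 2 called, rno-let-7c-5p had passed the filter on low counts through the steer libraries alone and so had to differ. mmu-let-7k had 80 and 69 counts in steers against 47 and 64 in bulls, for a log2 fold change of 0.48 that turned to -0.03 with total counts. rno-let-7b-3p, the minor strand of let-7b, had 13 and 14 counts in steers against 7 and 10 in bulls, for a log2 fold change of 0.71. rno-let-7c-2-3p, with 11 and 2 counts in steers against 5 and 12 in bulls, did not pass the filter. The minor strand bta-let-7a-3p, with 105 and 128 counts in steers against 232 and 264 in bulls, lay below 0, at a log2 fold change of -1.05 (adjusted p = 0.153, edgeR's quasi-likelihood test, unadjusted 0.0374). The other 8 bovine let-7 miRNAs lay between -0.86 and 1.05, with 6 above 0. None of these 8 was called by edgeR's quasi-likelihood test, 1 had an unadjusted p under 0.05, DESeq2 called 1 and limma-voom 0. The highest was bta-let-7i, with 445701 and 558376 counts in steers against 262946 and 226079 in bulls, which gave a log2 fold change of 1.05 (adjusted p = 0.0809, edgeR's quasi-likelihood test). mmu-let-7j thus held 1383 counts in all where bta-let-7i held 1493102.

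Homologs were set beside the bovine miRNA of the same name. The name after the prefix also existed as a bovine miRNA for 11 homologs, and a further 13 were paired by hand where the names differed by an arm or a letter. In 17 of these 24 pairs the homolog had under 5% of the count of the bovine miRNA. The share ran down to 0.00156% for mmu-miR-26a-5p, with 21 counts beside 1347079 of bta-miR-26a. The remaining 117 homologs had no such pair.

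rno-miR-23b-3p was an exception among the conserved names, since it was about as abundant as its bovine counterpart. It held 88.3% and 114% of the count of bta-miR-23b-3p in steers against 60.8% and 53.2% in bulls, so the groups did not overlap. bta-miR-23b-3p itself had 13358 and 10378 counts in steers against 13323 and 11092 in bulls, for a log2 fold change of -0.01 (adjusted p = 0.993, edgeR's quasi-likelihood test) beside 0.76 for the homolog. The difference between these 2 fold changes was not tested. Homologs above their bovine counterpart in sum were hsa-miR-320b (119 counts beside 6), hsa-miR-1343-5p (243 beside 107) and hsa-miR-940 (56 beside 17). hsa-miR-1343-5p had 40 and 68 counts in steers against 53 and 82 in bulls, hsa-miR-320b 21 and 34 against 40 and 24, and hsa-miR-940 10 and 9 against 16 and 21.

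**Figure D5:**
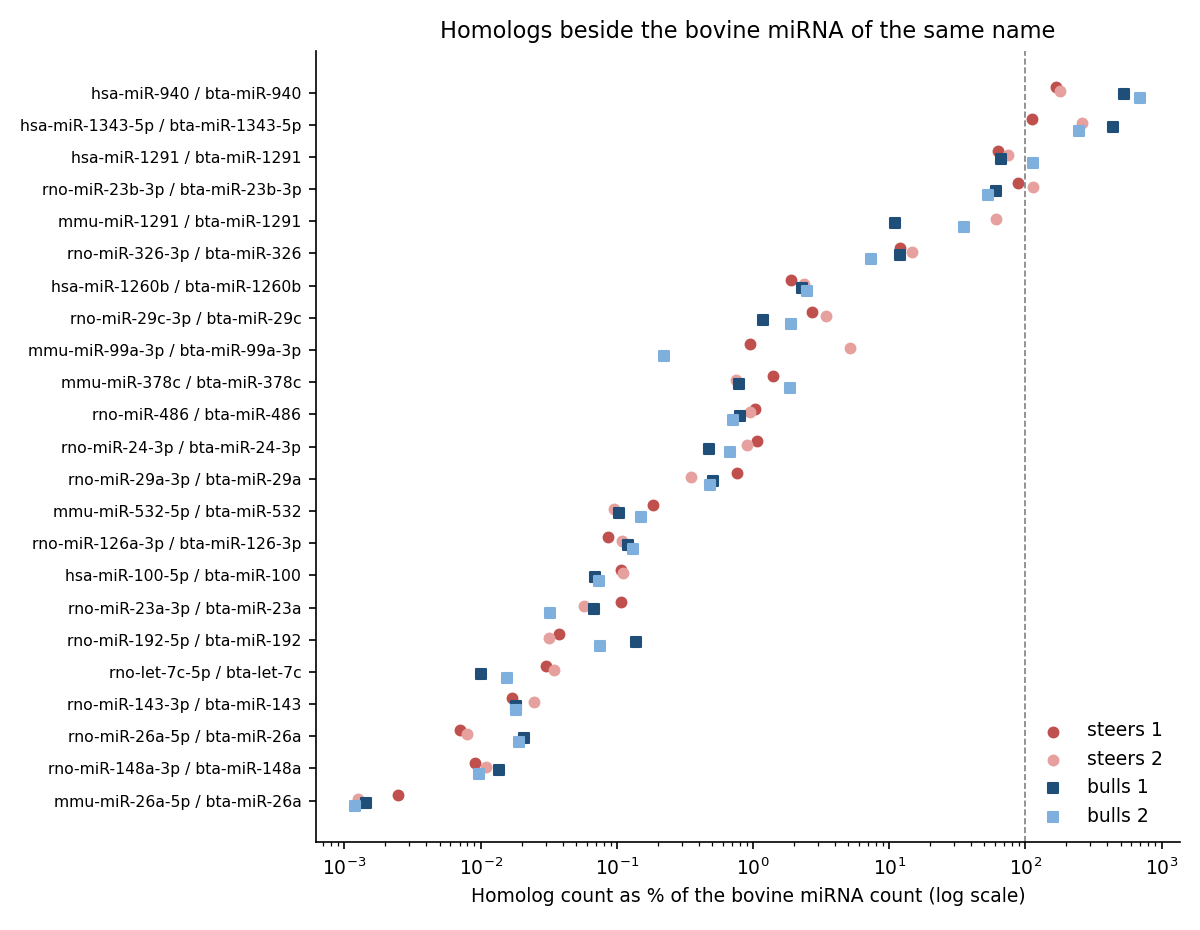
Count of a homolog as a percentage of the count of the bovine miRNA of the same name (log scale) in each library, for 23 of the 24 pairs, with circles for steers, squares for bulls and a dashed line at equal counts. The pair of hsa-miR-320b is left out because its bovine count is 0 in steers 1, a homolog at 0 in a library has no point there, and 17 homologs lie under 5% in sum.

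Of the 17 pairs in which both were tested, 12 had log2 fold changes of the same sign. For called homologs with a counterpart, the bovine miRNA passed the test in some pairs and not in others. rno-miR-486 held 1.03% and 0.954% of the count of bta-miR-486 in steers against 0.802% and 0.711% in bulls. bta-miR-486, with 26327 and 62923 counts in steers against 16461 and 15905 in bulls, was also higher, by a log2 fold change of 1.47 (SE 0.48, edgeR's quasi-likelihood test, adjusted p = 0.0233). Steers 2 was the highest library for both. The other erythroid miRNAs did not follow: bta-miR-451 had 175 and 104 counts in steers against 521 and 475 in bulls and was lower by a log2 fold change of -1.79 (adjusted p = 0.0041, edgeR's quasi-likelihood test). bta-miR-144 had 4 and 2 counts against 15 and 9 and was not called. It passed the filter on low counts through the bull libraries alone. The muscle miRNAs, another known site of miR-486, summed to 2208 and 3377 CPM in steers against 5842 and 5394 CPM in bulls, and 2 of 6 were lower. The part of either cell type in the result was not tested.

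rno-miR-126a-3p held 0.0854% and 0.110% of the count of bta-miR-126-3p in steers against 0.121% and 0.131% in bulls. bta-miR-126-3p was lower as well, with 11709 and 7300 counts in steers against 30691 and 19919 in bulls, which gave a log2 fold change of -1.40 (SE 0.49, edgeR's quasi-likelihood test, adjusted p = 0.0359). For rno-miR-143-3p, which was not called, the share of bta-miR-143 was 0.0169% and 0.0245% in steers against 0.0182% and 0.0181% in bulls, and bta-miR-143 was higher by a log2 fold change of 1.18 (adjusted p = 0.0321, edgeR's quasi-likelihood test).

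rno-miR-26a-5p went lower than its counterpart. Its share of bta-miR-26a was 0.00702% and 0.00792% in steers against 0.0209% and 0.0192% in bulls, whereas bta-miR-26a, with 285103 and 239822 counts in steers against 488288 and 333866 in bulls, had a log2 fold change of -0.64 (adjusted p = 0.322, edgeR's quasi-likelihood test). The mouse name of the same miRNA, mmu-miR-26a-5p, had 7 and 3 counts in steers against 7 and 4 in bulls and did not pass the filter. mmu-miR-99a-3p held 0.9503% and 5.20% of the count of bta-miR-99a-3p in steers, and 0% and 0.222% in bulls. bta-miR-99a-3p, with 1789 and 1386 counts in steers against 1104 and 902 in bulls, had a log2 fold change of 0.69 (adjusted p = 0.339, edgeR's quasi-likelihood test). rno-let-7c-5p held 0.0303% and 0.0347% of bta-let-7c in steers against 0.0100% and 0.0156% in bulls, and bta-let-7c had a log2 fold change of 0.65 (adjusted p = 0.356, edgeR's quasi-likelihood test). In these 3 pairs the homolog passed the test and the bovine miRNA did not, but mmu-miR-99a-3p and rno-let-7c-5p had passed the filter through the steer libraries alone, and the difference within a pair was not tested.

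The rest of the pairs did not pass the test for the homolog. Among them, hsa-miR-1260b held a similar share in all libraries, at 1.91% and 2.35% of bta-miR-1260b in steers against 2.30% and 2.49% in bulls. hsa-miR-1291, a miRNA from a small nucleolar RNA, had 12 and 17 counts in steers against 6 and 16 in bulls, beside 19 and 23 against 9 and 14 of bta-miR-1291. rno-miR-24-3p, of the same clusters as miR-23b, had 50 and 34 counts against 34 and 33, a log2 fold change of 0.37 beside -0.49 of bta-miR-24-3p. The hsa-miR-100-5p homolog, identical in sequence to bta-miR-100, had 16 and 12 counts in steers against 18 and 14 in bulls, or 0.107% and 0.110% of bta-miR-100 in steers against 0.0696% and 0.0739% in bulls. mmu-miR-378c, with 7 and 5 counts against 3 and 6, did not pass the filter. Nor did rno-miR-192-5p, with 11 and 8 counts in steers against 17 and 6 in bulls. It held 0.0377% and 0.0318% of bta-miR-192 in steers against 0.139% and 0.0754% in bulls. bta-miR-192 was higher in steers, by a log2 fold change of 1.435 (adjusted p = 0.0310, edgeR's quasi-likelihood test).

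A list of names that are known to overlap transfer, ribosomal or small nucleolar RNA held 13 homologs with 28.9% of the homolog counts. The list does not hold hsa-miR-7641 and mmu-miR-712-5p. With both added, after their values had been seen, the 15 homologs held 48.5% of the counts, and of 14 tested 1, mmu-miR-712-5p, was called. The 13 of the list took 0.106% and 0.109% of all counts in steers against 0.110% and 0.238% in bulls. In these shares, which are not scaled by the TMM factors, bulls 2 alone was high. Of 12 tested, 4 lay above 0 and 8 below, with a median log2 fold change of -0.40 beside -0.07 over all sequences, and 0 were called by edgeR's quasi-likelihood test. At an unadjusted p under 0.05 there were 2, DESeq2 called 1 and limma-voom 0. hsa-miR-3607-3p, from a small nucleolar RNA, had 153 and 141 counts in steers against 175 and 388 in bulls. hsa-miR-1260a, a transfer RNA name, had 94 and 107 counts against 175 and 158. hsa-miR-664a-3p had 130 and 80 counts against 82 and 95, and mmu-miR-6239 had 93 and 154 against 30 and 72. Low in count were hsa-miR-3653-3p (22 and 30 against 30 and 47), hsa-miR-1260b (13 and 20 against 28 and 42) and hsa-miR-7977 (23 and 16 against 39 and 15).

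Of the miR-10, miR-99/100 and miR-125 families, 2 names were among the homologs, mmu-miR-99a-3p, which was called, and hsa-miR-100-5p, which was not (log2 fold change -0.16, SE 0.63). The stromal, erythroid and epithelial lists held 1 homolog each, rno-miR-143-3p, rno-miR-486 and rno-miR-203a-3p, and the let-7 list held 3, of which rno-let-7c-5p was called. Both mmu-miR-99a-3p and rno-let-7c-5p had passed the filter on low counts through the steer libraries alone.

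The same name could stand in more than 1 place of the table. hsa-miR-4454, a transfer RNA name, had 5 and 5 counts in steers against 10 and 27 in bulls as a homolog. A predicted sequence from bovine chromosome 1 that carried the tag hsa-miR-4454 had 419 and 309 counts in steers against 645 and 1226 in bulls, and was lower by a log2 fold change of -1.27 (SE 0.46, edgeR's quasi-likelihood test, adjusted p = 0.0456). Such a tag with the name of a homolog was found on 7 predicted sequences and for 5 names. Their sequences are shown because reads of these names were counted outside the homologs as well, and the hsa-miR-4497 tag stood on 2 predicted loci of chromosome 12 with 1 sequence:
predicted, tagged hsa-miR-4454: aTCCGAGTcacggcacc
predicted, tagged hsa-miR-4497: cTCCGGGAcggctgggaag
The homolog hsa-miR-4497 had 150 and 101 counts in steers against 198 and 290 in bulls, for a log2 fold change of -0.88. Its 2 predicted loci had 132 and 112 against 59 and 131 counts, and 100 and 103 against 75 and 140.

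Some homologs could not be told apart by their counts. hsa-miR-606 and hsa-miR-3615 had the same counts, 16 and 13 in steers against 7 and 12 in bulls. The counts of rno-miR-3556b and rno-miR-24-3p were within 15% of each other in each library. Where a name occurred in 2 species the counts differed: mmu-miR-5100 had 143 and 94 counts in steers against 114 and 208 in bulls, and hsa-miR-5100 had 17 and 6 against 20 and 44. mmu-miR-1291, at the threshold, had 0 and 14 counts in steers against 1 and 5 in bulls.

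By number in the name, 79 of the 141 homologs stood at 3000 or above and held 61.9% of the homolog counts. Of 57 tested, 1 (1.75%) was higher and 4 (7.02%) were lower, beside 7.08% of all sequences each way, with a median log2 fold change of -0.32 beside -0.07. The 37 with a number below 1000, the range in which most conserved families lie, held 32.9% of the counts, and of 31 tested 3 (9.68%) were higher and 5 (16.1%) lower, with a median of 0.28. Among these calls, mmu-miR-99a-3p had passed the filter on low counts through the steer libraries alone. Through the bull libraries alone came rno-miR-126a-3p and hsa-miR-629-3p here, and hsa-miR-7705 in the class of 3000 or above. The lower calls rno-miR-203a-3p and rno-miR-203b-5p were not independent results. Bulls 2 differed from bulls 1 in opposite directions in the 2 classes, with a median log2 ratio of 0.56 in the first and -0.40 in the second. The split was not particular to homologs. Among all sequences tested, this ratio was -0.49 for known bovine miRNAs and 0.45 for predicted sequences. The 35 homologs that did not pass the filter were 15 human, 15 mouse and 5 rat names, with sums of at most 42.

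The threshold of 20 was met exactly by 4 homologs and exceeded by 1 count by 7. Just outside it were 2 sequences with a sum of 19 and 3 with a sum of 18. Below the threshold lay 2590 sequences with such a name, of which 1236 had a sum of 1, and together they held 3.89% of the counts of all human, mouse and rat names.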

How the data were processed

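Small RNA of 4 libraries was sequenced on an Illumina instrument. The authors trimmed the reads and removed those under 15 bases. BWA aligned what was left to the bovine genome and to miRBase 21. Predictions by miRDeep followed, and reads without a match then went into a BLAST search of rat, mouse and human entries. The deposited values used here are raw counts per sequence, with no normalization by the authors. How a read that matches several sequences was counted is not given in the sources used here. The submitters' processing notes name a human build, whereas the methods name a bovine one, and no coordinates were used.

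Libraries were grouped as castrated or intact by their labels. All sequences that passed filterByExpr were fitted in edgeR 4.0.16 (R 4.3.3) by glmQLFit and glmQLFTest after TMM scaling, and p-values were adjusted over them by Benjamini-Hochberg. The SE was derived from the log2 fold change and the F statistic. The thresholds of a call were an adjusted p of 0.05 and a log2 fold change of 1 in either direction. The common biological coefficient of variation was 0.339. EBSeq, which the authors used, was not used here. The fit was tested on simulated data. CPM values use the TMM-scaled library size. Exact intervals of ratios allow for counting error alone, because amplified reads are not separate molecules.

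Named homologs were those called, the 12 with the largest sum, the 10 with the largest sum that share an exact name with a bovine miRNA, and members of the lists (let-7, miR-10/99/100/125, stromal, muscle, erythroid, immune, epithelial, and names overlapping other RNA). No homolog was on the muscle or immune list. Pairs formed by name, homologs just outside the threshold of the test, bta-miR-185, hsa-miR-4497 and names with like counts were named after their values had been seen. The homologs and the lists were chosen with earlier results of these data known. The mRNA counts, as deposited by the authors after alignment with MapSplice, served only for the cell markers. Alternatives were other scalings, filters and tools, a replicate block, summed names and each library left out in turn.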

Additional observations from a re-analysis of the deposited data

How the results depend on the processing

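The 16 calls fell to 0 with total counts, to 0 with TMM factors from known bovine miRNAs alone and to 6 with every sequence of at least 1 count tested, which adds low sequences to the adjustment. Without 1 library they ranged from 1 to 11, where the lone library of a group is assumed to vary like the others. For the first 2 settings the cause was not tested, and over all sequences the calls there fell from 152 to 1 and 9. With the replicate number as a block there were 26 calls, 12 higher and 14 lower, beside 252 calls over all sequences. Deviations from the group means correlated at r = 0.304 between same-numbered libraries over 1073 sequences. With 2 pairs and no label that ties the numbers to a shared batch, this is a hint from the data and the numbers were not taken to pair the libraries. DESeq2 (5 higher, 8 lower), limma-voom (3 and 9), upper-quartile factors (9 and 8), a minimum sum of 20 in place of the filter (6 and 10), names summed over species (4 and 10) and no fold threshold (6 and 10) stayed within 1.5 times. The share of counts moved by less than the spread between libraries with known bovine miRNAs as the denominator (0.437% in steers, 0.640% in bulls) and with all human, mouse and rat names (0.415% and 0.588%). Neither alternative applied the TMM factors.

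Of 623 alternative log2 fold changes of 48 homologs, 23 changed sign and none of these was of a called homolog, while 98 values of called homologs missed the threshold. With total counts the value was -0.17 for mmu-miR-6978-5p, -0.12 for rno-miR-24-3p, -0.054 for hsa-miR-1291, -0.22 for hsa-miR-664a-3p, -0.056 for rno-miR-29c-3p, -0.17 for rno-miR-23a-3p and -0.031 for mmu-let-7k. With upper-quartile factors it was 0.11 for mmu-miR-6236 and 0.022 for hsa-miR-100-5p, and with DESeq2 0.0095 for mmu-miR-6236. Without 1 library it ranged from -0.32 to 0.20 for mmu-miR-6236, -0.50 to 0.13 for mmu-miR-6240, -0.58 to 0.063 for hsa-miR-1343-5p, -0.70 to 0.56 for hsa-miR-320b, -0.12 to 0.71 for hsa-miR-664a-3p, -1.13 to 0.76 for hsa-miR-7977, -0.50 to 0.39 for hsa-miR-100-5p, -0.12 to 1.35 for rno-miR-148a-3p and -0.53 to 1.38 for rno-miR-23a-3p. Of the 74 homologs with a sum under 100, 35 were too low to be tested. Adding 2 ribosomal RNA names to the list of other RNA, an alternative chosen after seeing the data, raised its calls from 0 to 1.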
